A study of Mus musculus with 8 samples.

Results

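In 3′ UTRs of mouse forebrain, 704 clusters from a study of Argonaute-bound RNA carried a miR-27 seed match and no miR-128 seed match. They were taken from a deposited table of 70142 clusters, of which 9284 name a gene in its 3′ UTR, by 2 of its columns: at least 1 match counted for miR-27b-3p and 0 counted for miR-128-3p. The 704 clusters were 7.58% of the 3′ UTR clusters, and they are set beside the 7313 3′ UTR clusters with 0 in both columns. A further 530 had both matches and 737 had a miR-128 match alone. Within the rule, 660 clusters had exactly 1 miR-27 match, 43 had 2 and 1 had 3; just outside it lay 474 clusters with a miR-27 match and exactly 1 miR-128 match.

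The table holds 1834586 reads in all. The study made FLAG-Ago HITS-CLIP libraries, in which RNA is crosslinked to a tagged Argonaute protein by ultraviolet light, pulled down and sequenced, to look for miRNA seeds targeted in Camk2a neurons. In 3 experiments, Flag-Ago2 libraries (5, labelled 1, 2a, 2b, 3a and 3b) came from animals carrying Camk2a-cre; Rosa-Stopfl/fl-Flag-Ago2, where the Camk2a promoter drives Cre, which switches on tagged Ago2 in forebrain neurons. Control libraries (3, labelled 1, 2 and 3) came from Rosa-Stopfl/fl-Flag-Ago2 animals, which carry the same stopped allele without Cre. Mice of both groups were 8 to 14 weeks old, half-forebrain lysates went into each pull-down with the M2 FLAG antibody, and no further treatment is given. Reads are pooled in the table over libraries that it does not name, so there is 1 read count per cluster, no value per library or group, no control level beside any value and no test over samples. All intervals below are 95% intervals for counting error only; PCR copies without molecular identifiers are not independent molecules, and clusters are not replicates. The label names Camk2a neurons, yet 3′ UTR clusters lay in 7 of 12 excitatory forebrain neuron markers and also in 10 of 12 astrocyte, 9 of 14 oligodendrocyte, 9 of 12 striatal projection neuron, 6 of 12 interneuron, 4 of 12 endothelial and mural and 3 of 12 microglial markers; the part of these cells in any result was not tested.

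A miRNA guides Argonaute to an mRNA mainly through its seed, the stretch near its 5′ end that pairs with a complementary run of the 3′ UTR. The miR-27 family, miR-27a and miR-27b, is made from gene clusters that also encode miR-23 and miR-24, and it is best known for its part in fat cell formation and lipid metabolism; miR-128 is a miRNA abundant in brain neurons. The mature sequences, credited to RefSeq on build GRCm38.p6, are shown because their seeds decide which clusters the rule takes. Capitals mark bases 2 to 8.
mmu-miR-27a-3p: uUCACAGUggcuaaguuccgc
mmu-miR-27b-3p: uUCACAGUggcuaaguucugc
mmu-miR-128-3p: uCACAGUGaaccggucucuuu
The members of the miR-27 family differ in 1 of 21 bases, at position 19 from the 5′ end, and their columns were equal in all 70142 clusters. Bases 2 to 7 of miR-128 lie within bases 2 to 8 of miR-27, shifted by 1 base.

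The 2 rules therefore share letters. The column of miR-27 counts CTGTGA, which pairs with bases 2 to 7, on the strand of the cluster, and the column of miR-128 counts ACTGTG. Counting these 6-mers with an overlap of at least 1 base gave the deposited number in 8360 of 8360 3′ UTR clusters whose sequence could be read. CTGTGA was counted in 1234 of the 9284 3′ UTR clusters (13.3%, Wilson interval 12.6 to 14.0) and ACTGTG in 1267 (13.65%, 12.96 to 14.36). When A stands before CTGTGA, the run ACTGTGA pairs with bases 2 to 8 of miR-27 and also holds the miR-128 6-mer. Requiring 0 for miR-128 thus leaves only miR-27 matches without the pair at base 8: none of the 646 matches that lay wholly inside the 641 members of known sequence was preceded by A, whereas 360 of 503 (71.6%, 67.5 to 75.3) were in clusters with both matches. This follows from the rule and is no finding. The remaining types are the plain 6-mer and the 6-mer followed by A, a base that Argonaute is known to favour opposite miRNA base 1.

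Around all 3′ UTR clusters, miR-27 6-mers without the A in front were denser at the centre than in the flanks. In the central 50 bases there were 306 in 452214 positions, or 0.677 per kb (Poisson interval 0.603 to 0.757), against 705 in 1675841 positions, or 0.421 per kb (0.390 to 0.453), at 100 to 200 bases from the centre. The ratio was 1.61 (exact interval 1.40 to 1.84). Matches with A in front, the ones the rule leaves out, reached 0.482 per kb (0.420 to 0.551) at the centre against 0.131 per kb (0.115 to 0.150) in the flanks, a ratio of 3.67 (3.03 to 4.45). The intervals of these ratios do not overlap. A match with A in front also holds the miR-128 6-mer, so miR-27 and miR-128 cannot be told apart there. For comparison the same ratio was 1.87 (1.63 to 2.14) for the miR-29 6-mer and 1.02 (0.860 to 1.199) for that of miR-9, both from families abundant in brain. The 3′ UTR clusters enter these ratios whatever their deposited seed columns, at the positions whose sequence could be read, and the differences between ratios were not tested. A match near several clusters is counted once for each, which the intervals do not take into account. In clusters wider than 200 bases the flanks reach into the cluster itself. With clusters of at most 200 bases the ratio was 1.67 (1.43 to 1.95) without A in front and 3.65 (2.94 to 4.52) with it.

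**Figure D1:**
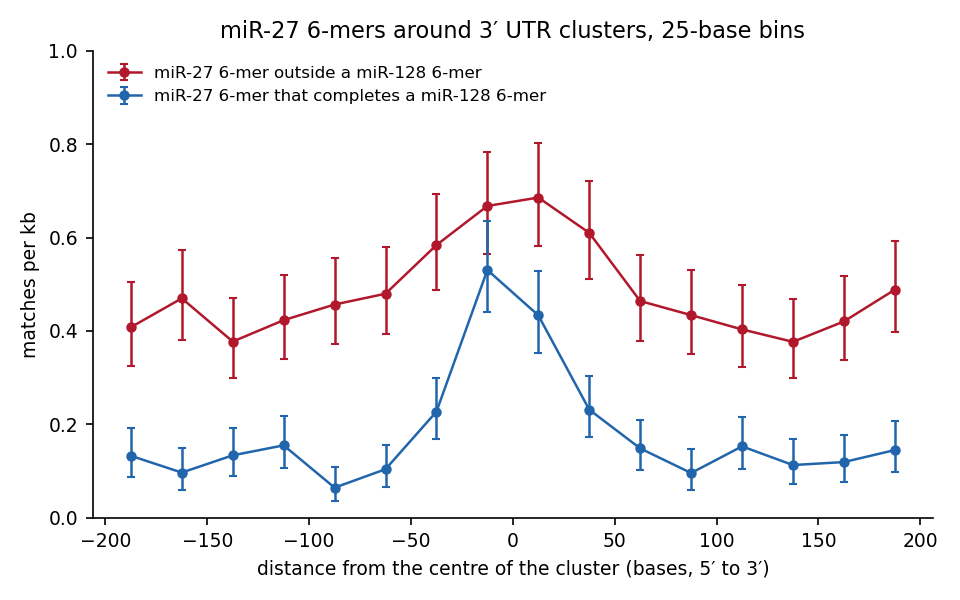
Matches per kb (y axis) of the miR-27 6-mer in 25-base bins of distance from the centre of the 3′ UTR clusters (x axis, bases), at positions of known sequence, with 95% Poisson intervals; red is the 6-mer outside a miR-128 6-mer, blue the one preceded by adenine, which completes it. The red line is highest, at 0.686, in the bin just downstream of the centre, and the blue line, at 0.531, in the bin just upstream.

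The ratio was also taken by the base on either side of the 6-mer. Followed by A, the miR-27 6-mer without A in front had a ratio of 2.14 (1.66 to 2.75), from 101 central matches, and not followed by A it had 1.43 (1.21 to 1.69), from 205, with overlapping intervals. Preceded by G, which can form a wobble pair with the U at miRNA base 8, the ratio was 2.29 (1.82 to 2.86) from 129 central matches. Preceded by C it was 1.35 (1.04 to 1.74) from 85, and preceded by T 1.30 (1.01 to 1.65) from 92; the interval for G lies apart from both. Base content itself changed along the clusters: G made up 29.0% of the central 50 bases and 23.0% of the flanks, T 24.6% and 28.4%, C 20.2% and 23.3%, and A 26.2% and 25.3%. The part of this shift in the ratios was not tested. A G also stands in front where the 6-mer of miR-29 or miR-22, among other families, shares its last 2 bases with the miR-27 6-mer. Overlap with the 6-mer of let-7 puts T there, and overlap with that of miR-7 puts C. The miR-29 6-mer itself had a ratio of 1.87 (1.63 to 2.14). The part of such overlaps in the ratio for G was not tested, nor was that of the wobble pair. With A on both sides, the full match of miR-27, the ratio was 4.38 (3.12 to 6.17). Every such match also holds the miR-128 6-mer, so the 2 miRNAs cannot be told apart in this ratio.

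**Figure D2:**
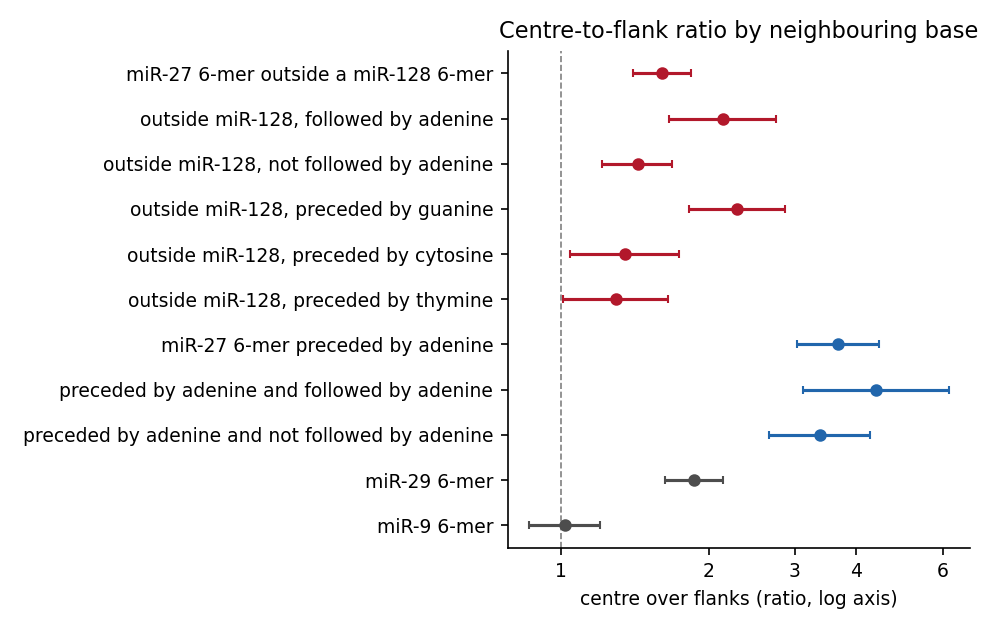
Density of matches in the central 50 bases over that at 100 to 200 bases from the centre (x axis, log scale, dashed line at 1) for the miR-27 6-mer by neighbouring base and for 2 other families, with exact 95% intervals. The miR-27 6-mers outside a miR-128 6-mer (red) lie between 1.30 and 2.29, those preceded by adenine (blue) between 3.37 and 4.38.

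In front of the matches inside the 704 clusters, where the rule bars A, G was the most frequent base. Of the 646 matches, in 613 members, 258 were preceded by G (39.9%, 36.2 to 43.8), 195 by T (30.2%, 26.8 to 33.8) and 193 by C (29.9%, 26.5 to 33.5). In the same 516 3′ UTRs, 587 matches without A in front lay outside every cluster, and of these 28.3% (24.8 to 32.1) were preceded by G, 38.7% (34.8 to 42.7) by T and 33.0% (29.4 to 36.9) by C. For G and for T, the intervals of members and of matches outside clusters do not overlap. Base content along all 3′ UTR clusters differed in the same direction. G was the most frequent base of the central 50 bases, at 29.0% against 23.0% in the flanks. T was the most frequent in the flanks, at 28.4% against 24.6%. The part of base content in these shares was not tested. A followed 185 matches in members (28.6%, 25.3 to 32.2) and 23.9% (20.6 to 27.5) of those outside, with overlapping intervals. The 30 bases on each side held a median of 50% A and T in members (48.3 to 50) and 51.7% outside (50 to 53.3). Neighbouring letters also complete 6-mers of other miRNAs. A G behind the match makes that of miR-342-3p. G followed 202 matches in members (31.3%, 27.8 to 34.95) and 30.5% (26.9 to 34.3) of those outside, with overlapping intervals. A C in front makes that of miR-12196-3p and miR-6937-3p. A G stands in front where the 6-mer of miR-29 or miR-22, among other families, shares its last 2 bases with the match. The part of such overlaps in the share of G was not tested.

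Within the clusters the matches were fewer near both ends. Each cluster was cut into 5 equal parts, of which even placement gives 20% each. The middle part held 140 of 646 matches (21.7%, 18.7 to 25.01), with an interval that holds 20%. The next part towards the 5′ end held the most, 25.1% (21.9 to 28.6), and the parts at the 5′ and 3′ ends held 15.6% (13.04 to 18.6) and 16.25% (13.6 to 19.3). Measured as the central 50 bases instead, the middle held 36.2% (32.6 to 40) where even placement gives 32.5%. Among all matches of miR-128 in 3′ UTR clusters the middle part held 369 of 1197 (30.8%, 28.3 to 33.5), and among those of miR-29 219 of 770 (28.4%, 25.4 to 31.7), intervals that do not overlap that of the 704 clusters. For miR-9 it held 118 of 548 (21.5%, 18.3 to 25.2). These sets are unlike, since the rule leaves out miR-27 matches with A in front and the other families count every match. The centre-to-flank ratio of the miR-27 matches left out was 3.67, against 1.61 for those without A in front. The part of this in the lower middle share was not tested. No mature sequence for miR-124-3p was in the table used, so its matches were not placed.

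**Figure D3:**
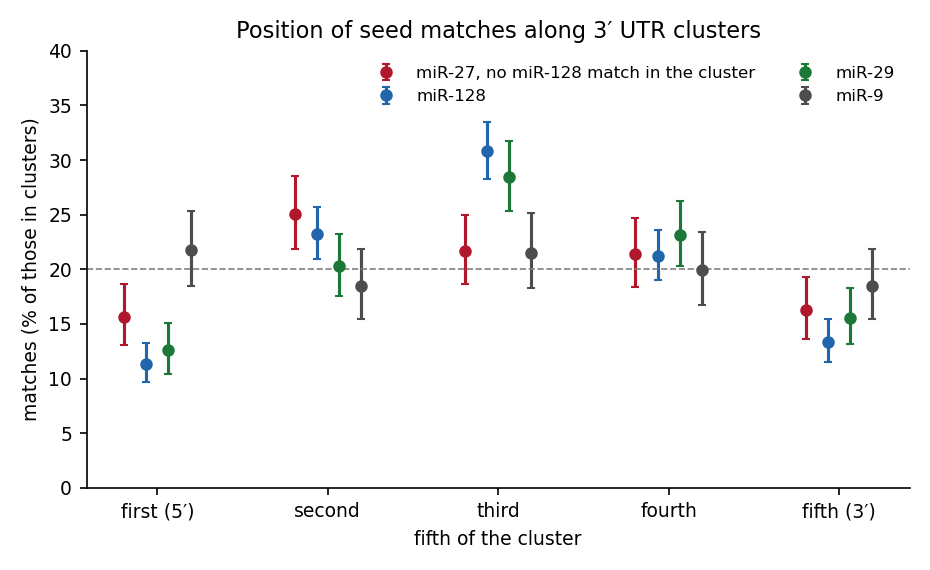
Share of seed matches (y axis, percent) in each of 5 equal parts of the cluster from the 5′ to the 3′ end (x axis), with 95% Wilson intervals; the dashed line is even placement. The miR-27 matches of the 704 clusters (red) stand at 21.7% in the middle part, below miR-128 (blue) at 30.8% and miR-29 (green) at 28.4%. By the rule the red points hold no match with A in front, whereas the other families count every match.

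The 704 clusters and those with neither match had medians with overlapping intervals at like width. Members held 22178 reads in all, from 10, the table's own minimum, to 566 per cluster, with a median of 23 (21 to 24), against a median of 21 (20 to 21) in clusters with neither match. Members were also wider, with a median of 169.5 bases (161 to 176) against 139 (137 to 141). In clusters of 100 to under 150 bases the medians were 21.5 (20 to 24) in 240 members and 20 (20 to 21) in 3378 with neither match. In those of 150 to under 200 bases they were 20 (18 to 23) and 20 (19 to 21). At 200 bases or more they were 29 (27 to 32) and 28 (27 to 30), and under 100 bases 13.5 (12 to 17) and 14 (14 to 15). The intervals overlap in every width bin.

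**Figure D4:**
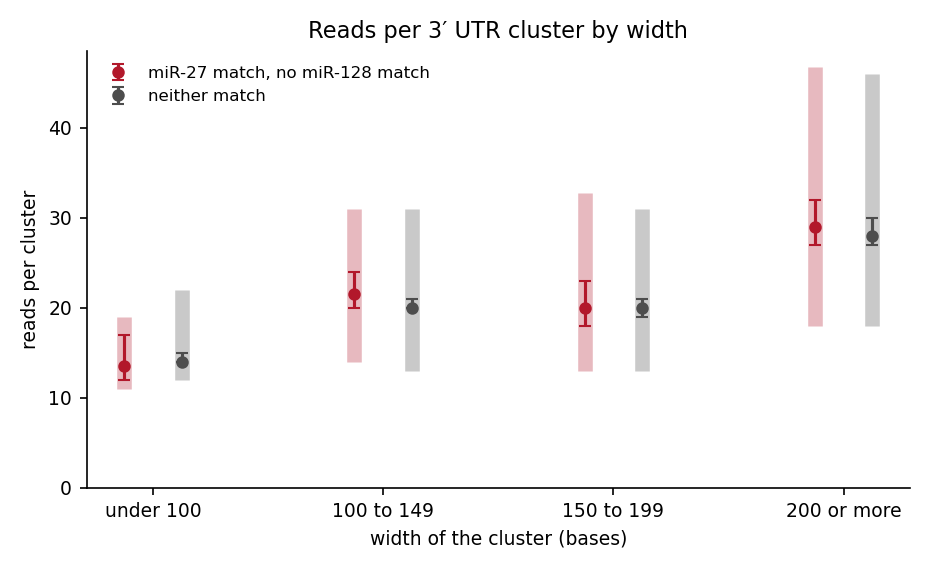
Reads per cluster (y axis) by width of the cluster (x axis, bases) in clusters with a miR-27 and no miR-128 match (red, left) and with neither match (grey, right). Points are medians with exact 95% intervals and shaded bars span the middle 50% of the clusters; at 200 bases or more the medians are 29 and 28.

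Clusters of at least 100 reads took up shares with overlapping intervals in members and in clusters with neither match, while at 50 reads the intervals lay apart. At least 100 reads were found in 16 of 704 members (2.27%, 1.40 to 3.66) and in 2.35% (2.03 to 2.73) of the clusters with neither match. At least 50 reads were found in 14.5% (12.1 to 17.3) and 10.95% (10.3 to 11.7); the part of the members' greater width in this was not tested. Clusters with both matches held at least 100 reads in 31 of 530 (5.85%, 4.15 to 8.18), and those with a miR-128 match alone in 4.21% (2.98 to 5.91). Among clusters of 200 bases or more, the shares with at least 100 reads were 4.62% (2.60 to 8.09) in members and 8.02% (4.92 to 12.8) with both matches. They were 7.49% (4.73 to 11.7) with a miR-128 match alone and 4.43% (3.50 to 5.59) with neither. At 100 to under 150 bases members had 0.417% (0.0736 to 2.32) and clusters with both 5.16% (2.91 to 9.01), intervals that lie apart. There miR-128 alone had 2.97% (1.515 to 5.76) and neither 1.75% (1.36 to 2.25). At 150 to under 200 bases members had 2.1% (0.82 to 5.29) and both 4.5% (1.94 to 10.1), which overlap. Site type did not move the depth of members beyond its interval: the median was 25 reads (22 to 28) in 184 with a match followed by A and 23 (21 to 25) in 429 without, and 24 (22 to 26) in 255 with a match preceded by G and 23 (21 to 25) in 358 without.

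The deepest of the 704 clusters was in the 3′ UTR of Zfp871, a zinc finger gene, with 566 reads on the minus strand at chr17:32773987-32774170. Ipmk, which encodes a kinase of inositol phosphates, followed with 376 reads at chr10:71381711-71381884, in an interval that the table also gives to the CDS. Larp1, an RNA-binding regulator of translation, had 300 reads. Rab15, a small GTPase of endosomal transport, had 240 reads over 439 bases. Rps6ka3, the kinase RSK2 downstream of ERK, had 152 reads and 2 matches. Khsrp, an RNA-binding protein of mRNA decay and miRNA processing, had 145, and its match could not be read in the sequences used. Atp13a3, a transport ATPase, had 142, and Gpd2, the mitochondrial glycerol-3-phosphate dehydrogenase, 137. Fut8, a fucosyltransferase, had 135, and Tet3, an enzyme that oxidises methylated cytosine, 131. The first 4 of these members stood above all others, which held 152 reads or fewer.

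The matches of the 10 deepest members whose match could be read, Fam168b with 130 reads among them, are shown with 12 bases on each side, on mm10, because they let the missing A in front and the base behind be read. Capitals mark CTGTGA.
Zfp871, chr17:32774106-32774135, minus strand: agagaaacgggcCTGTGActgcgagcagtg
Ipmk, chr10:71381820-71381849, plus strand: tcttgctgcagtCTGTGAaggagcgggcca
Larp1, chr11:58061181-58061210, plus strand: ggaccgatgtatCTGTGAcaagtatgccag
Rab15, chr12:76799501-76799530, minus strand: gcctctgtgcctCTGTGAggaactgagtcc
Rps6ka3, first match, chrX:159366565-159366594, plus strand: gccagctctcttCTGTGActcacaaaaaac
Rps6ka3, second match, chrX:159366664-159366693, plus strand: aagacccaactcCTGTGActaacctggatg
Atp13a3, chr16:30313829-30313858, minus strand: agacctcttgagCTGTGAattagcactatt
Gpd2, chr2:57369573-57369602, plus strand: gtatatgttttgCTGTGAatgaagttcctt
Fut8, chr12:77475652-77475681, plus strand: tctgagagacctCTGTGActtaccgagaag
Tet3, chr6:83367060-83367089, minus strand: gttgaacccaagCTGTGAagagccagtgtg
Fam168b, first match, chr1:34816268-34816297, minus strand: agagaagcagggCTGTGAtgatgtgtaaaa
Fam168b, second match, chr1:34815982-34816011, minus strand: cccgacttgaatCTGTGAgagtgtttctgt
In Ipmk, Atp13a3, Gpd2 and Tet3 an A follows the match. In Atp13a3, Gpd2 and Tet3 a G stands in front as well. The match of Tet3 lay 50.3% of the way along its cluster and that of Fut8 43.1%, whereas those of Atp13a3 and Gpd2 lay at 85.3% and 78.01%.

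Members with a match followed by A and the most reads were, after Ipmk, Atp13a3, Gpd2 and Tet3, in Hsph1, a heat shock chaperone, with 95 reads, and Cmtr1, an mRNA cap methyltransferase, with 94. Cnr1, the cannabinoid receptor CB1, had 91, and its match stood at 93.9% of a cluster of 120 bases. Paqr8, a membrane progestin receptor, had 88. Gigyf1, a partner of translational repressors, and Srgap3, a GTPase-activating protein, had 87 each. The 1 cluster with 3 matches lay in Apba2, an adaptor protein of synapses, with 14 reads over 198 bases. Those with 2 matches and the most reads lay in Rps6ka3, Fam168b, Camk4, a calcium-dependent kinase, with 97, and Gigyf1. In 32 members with 2 or more matches wholly inside, 16 of 33 neighbouring pairs (48.5%, 32.5 to 64.8) stood 8 to 40 bases apart. That is the range known for cooperation between sites, and the median spacing was 49 bases. Both matches of a pair lie in 1 cluster, and members with 2 matches had a median width of 215 bases. The share that even placement would give was not computed, so cooperation was not tested.

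The 704 clusters named 649 genes, or 13.3% of the 4863 genes with a 3′ UTR cluster. At least 2 members were found in 50 genes and at least 3 in 10, and in 187 genes the member was the only 3′ UTR cluster. Rab15 had 3 members among 5 3′ UTR clusters, with 240, 53 and 21 reads. Ttyh3, of a family of chloride channels, had 3 of 5 with 86, 54 and 19 reads. Nap1l5 had 3 of 4 with 72, 13 and 12 reads. Dnm1, dynamin 1 of synaptic vesicle retrieval, had 3 of 10 with 49, 24 and 18 reads. Usp31, a deubiquitinase, had 3 of 9 with 45, 28 and 13. In 54 genes another 3′ UTR cluster held both matches. Like counts over all genes with a 3′ UTR cluster are not given here, so these gene counts have no background.

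Few of the reported miR-27 targets could be looked at. Of 25 listed genes, mostly known from fat, liver and other tissues, 5 had a 3′ UTR cluster and 2 had a member. That was 40% of these genes (11.8 to 76.9), beside 13.3% of all genes, and 2 of their 12 clusters (16.7%, 4.70 to 44.8), beside 7.58% of all clusters. Both intervals hold the share over all. Among the 2 was Fbxw7, a ubiquitin ligase subunit, whose member held 12 of the 1230 reads in its 3′ UTR clusters. Its match was not read whole in the sequences used.
Among nuclear receptor and lipid genes, 6 of 16 with a 3′ UTR cluster had a member, or 6 of 40 clusters (15.0%, 7.06 to 29.1). They were led by Acsl4, which activates fatty acids, with 57 reads, and Srebf2, the transcription factor of cholesterol genes, with 48. The interval of the share holds the 7.58% of all 3′ UTR clusters.

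Genes of cAMP and calcium kinase signalling had the most members of the neuronal lists. A member was found in 9 of 19 genes with a 3′ UTR cluster (47.4%, 27.3 to 68.3), against 13.3% of all genes. Per cluster it was 12 of 95 (12.6%, 7.38 to 20.8), an interval that holds the 7.58% of all clusters; the 19 genes had 95 3′ UTR clusters, against 9284 over 4863 genes in all. Ppp3r1, the regulatory subunit of calcineurin, led with 73 and 57 reads in 2 members. Camk4 followed with 97 reads. Camk2a, whose promoter drives Cre, had 1 member among 5 3′ UTR clusters, with 70 reads and a match preceded by G and followed by A.

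In the other lists the share of 3′ UTR clusters that were members lay between 0 and 25%, and every interval held 7.58%. Presynaptic release genes had 6 of 70, led by Bsn, a scaffold of the active zone, with 33 and 11 reads. Glutamate synapse genes had 3 of 54, among them Nrxn3 with 40 and Grm5 with 21, and voltage-gated ion channels 2 of 78, among them Cacna1e with 13. ERK pathway genes had 2 of 33, Rps6ka3 with 152 and Braf with 55. RNA-binding and splicing genes had 5 of 89, led by Celf1 with 81 and Nova2 with 50. The miRNA machinery had 3 of 45, with 23 and 13 reads in Tnrc6b, a partner of Argonaute, and 34 in Ago2. Ubiquitin ligases and proteases had 3 of 49, led by Trim2 with 24 and Fbxw7 with 12, and activity-induced genes 1 of 17, Egr1 with 10.

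Members also lay in marker genes of several cell types. Excitatory neuron markers had 2 of 21 clusters, Camk2a with 70 reads and Slc17a7 with 13, striatal markers 1 of 22, Pde1b with 58, and interneuron markers 1 of 12, Gad1 with 23. Astrocyte markers had 2 of 37, among them Slc1a3 with 35. Oligodendrocyte markers had 3 of 18, in the myelin gene Mbp with 67 and 19 reads and in Olig2 with 24. Microglial markers had 1 of 4, Itgam with 10, and endothelial and mural markers 0 of 4.

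Most members also held seeds of other families. Of 21 other families counted, 2 or more were present in 326 members (46.3%, 42.6 to 50.0) against 37.6% (36.4 to 38.7) of clusters with neither match, and none in 24.1% (21.1 to 27.4) against 29.2% (28.2 to 30.3). Members were wider, so densities are given per kb of cluster. The miR-23 family is made from the same gene clusters as miR-27. It had 75 matches in members, 0.578 per kb (0.455 to 0.724), against 0.408 per kb (0.372 to 0.446), intervals that do not overlap. Overlap of its 6-mer with that of miR-27 was not analysed here, since no mature sequence of the deposited column was in the table used. The miR-24 match, of the other family made there, had 73 matches, 0.562 per kb (0.441 to 0.707), against 0.417 (0.381 to 0.456). Its first 3 bases can be the last 3 of the miR-27 match, as they were in 8 of 65 matches in members of known sequence. Both families were present in 8 members, where 68 members had miR-23 and 70 had miR-24. No such count was taken in clusters with neither match. The ratio of densities was 1.42 for miR-23 and 1.35 for miR-24, and lay between 0.606 for miR-137 and 1.39 for miR-99/100 in the other 19 families, whose intervals all overlap. The 6-mer of miR-101 shares 4 bases with that of miR-27, but an overlap of both completes the miR-128 6-mer, so the rule leaves none.

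**Figure D5:**
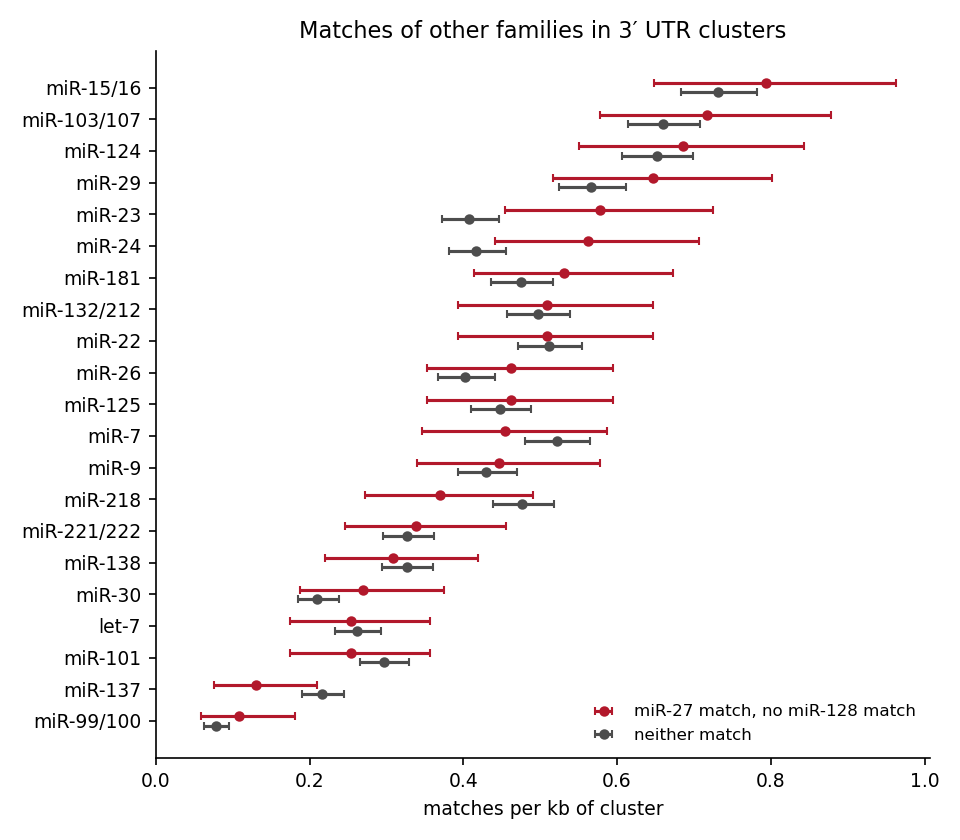
Matches per kb of cluster (x axis) for 21 other families (y axis) in clusters with a miR-27 and no miR-128 match (red, above) and in clusters with neither match (grey, below), with 95% Poisson intervals. The intervals are apart for miR-23, at 0.578 and 0.408, and overlap in the other 20 families.

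In annotation, place and base content the 704 clusters were close to those with neither match. A CDS was named as well by 16.6% (14.1 to 19.6) and 15.7% (14.9 to 16.6), an intron by 10.2% (8.20 to 12.7) and 10.7% (10.1 to 11.5), and a circRNA identifier was carried by 4.55% (3.24 to 6.35) and 4.36% (3.92 to 4.86). Of those inside a single exon piece of the named gene, 558 members and 5741 with neither match, the 3′ UTR had a median length of 2830.5 bases (2642 to 3055) and 2753 bases (2700 to 2821). Their centres lay a median of 1027 bases (865.5 to 1156) and 991.5 bases (962.5 to 1031) from the stop codon. Clusters were 51.1% A and T in the median member (50.3 to 51.8) and 51.8% (51.5 to 52.1) in those with neither match. By chromosome, members made up between 5.21% of 3′ UTR clusters on chromosome 4 and 9.80% on chromosome 9, chromosome Y left out, which had 1 cluster and no member. No cluster of the table overlapped the mature miR-27a or miR-27b sequence on its strand, and none overlapped mature miR-128 at either of its loci.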

How the data were processed

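The submitters' processing notes name BWA and mm10. How clusters were called, which libraries entered and whether controls were subtracted is not given in the sources used here. Reads come as a deposited count, which is a whole number per cluster, at least 10, not normalized and pooled, so 0 columns belong to a single library. The deposited miRNA columns count 6-mer matches per cluster. Groups could therefore not be compared, and no test was run.

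Sequences came from GENCODE M21 transcripts placed on the same assembly by their exons, which gave every base of 8424 of 9284 3′ UTR clusters, with up to 200 bases of flank. Intervals are Wilson for shares, exact order-statistic for medians, exact Poisson for densities and exact binomial for ratios (Python 3.11.15, scipy 1.17.1, pandas 2.3.3). Counting was tested on simulated data. Reads per cluster were also compared within 4 width bins. Named are the 10 deepest members, 10 with a match followed by A, the 5 genes with most members, 5 members with most matches and 2 genes of each of 18 lists. Some genes that this rule names are not reported here. Members, lists and rules were chosen with earlier results of these data known; the centre-to-flank ratio was added after the table was seen. No sequence of chromosome 18 is printed.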

Additional observations from a re-analysis of the deposited data

Results flagged for a closer look

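Clusters that meet the same 2 column conditions lay outside 3′ UTRs, which the comparisons above do not use. There were 806 in CDS, or 6.22% of the CDS clusters (Wilson interval 5.82 to 6.65), with a median of 21 reads. Introns held 1868, or 5.71% (5.46 to 5.97), with a median of 19. Another 52 lay in 5′ UTRs, 5.82% (4.46 to 7.55), 56 in clusters named only on the opposite strand, 2.55% (1.97 to 3.30), and 452 without annotation, 3.73% (3.41 to 4.09). The table does not tell control libraries from the others, so no control level stands beside these values.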

How the results depend on the processing

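Of 52 alternatives, 37 left the value inside the 95% interval of the value given above, among them all 15 of the centre-to-flank ratios, which were added after the table was seen. The ratio for matches without A in front ranged from 1.56 to 1.72, for those preceded by G from 2.24 to 2.62 and for those preceded by A from 3.44 to 4.12.

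The other 15 moved. With clusters of 20 or more reads, members were 8.15% of the 3′ UTR clusters and lay in 12.0% of the genes, the share with 100 or more reads was 3.82% in members and 4.35% with neither match, and both medians were 32. With clusters of at most 200 bases, that share was 1.06% and 1.80%, the median of members was 20 and 10.6% of genes had a member. At 50 reads the shares were 14.5% and 10.95%, with the Wilson interval of members (12.1 to 17.3) apart from that of the clusters with neither match (10.3 to 11.7). Against clusters with 0 in all fixed families, the comparison clusters had 1.40% with 100 or more reads and a median of 19. The central 50 bases held 36.2% of the members' matches, where even placement gives 32.5%. The alternative set of clusters or measure is itself the change in each; no other cause was tested.

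No paired analysis was possible because the table holds no value for a single library, and leaving out a replicate was not run for the same reason. A cluster needs 10 reads to be listed, so weaker sites are not seen, and 63 members without a full sequence and 28 whose matches all cross an edge of the cluster are missing from the counts of neighbouring bases and positions.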
